A study of Mus musculus with 20 samples.

Results

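The genes of melanin synthesis and of the pigment cell were followed through retinas of Nrl-/- mice at 5 ages. The list holds 8 genes, Tyr, Tyrp1, Dct, Pmel, Mlana, Slc45a2, Oca2 and Mitf, and each was found through the gene symbol, or an older symbol, that the platform's annotation gives its probe sets. Of these, 7 genes were on the table, with 95 probe sets among 194293 and as 7 of 15800 genes, and Pmel stood there under its older name Si. Mlana was not analysed here. The groups were retinas of 1, 2, 4, 6 and 10 months, 4 mice each, and both retinas of a mouse were pooled as 1 sample on 1 Affymetrix exon array. Every mouse was Nrl-/- on the C57Bl/6J strain, and no wild-type retina stood beside them. Nrl encodes the transcription factor that makes young photoreceptors become rods, and without it cone-like cells take their place. Levels are log2 intensities, so a difference of 1 is a doubling of the signal, and they are compared only for the same gene between arrays.

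Melanin is made in melanosomes. Tyrosinase, the product of Tyr, starts the pathway, and the enzymes Dct and Tyrp1 act on later steps towards black eumelanin. Pmel forms the fibrils on which the pigment is laid down, Slc45a2 and Oca2 are membrane proteins of the melanosome that bear on its pH, and Mitf is the transcription factor that drives many of these genes. In the eye the pigment lies in the retinal pigment epithelium, in melanocytes of the choroid and in the iris and ciliary body, whereas the neural retina makes none. In mice of a pigmented strain, RNA of these genes in a dissected retina is therefore commonly read as a gauge of pigmented tissue that stayed attached.

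Mitf and its relatives bind the letters CATGTG, and also CACGTG. Both were searched on both strands in the RefSeq promoters of GRCm38.p6, from 250 bases before to 50 bases after the annotated start. The table held 7 promoters of 5 of the genes. CATGTG, or CACATG when read on the other strand, was found in the promoters of 4 genes, Tyr, Tyrp1, Dct and Oca2, and in 14.2% of all 32851 promoters. CACGTG was in none of the 7 and in 7.15% of all promoters. The 4 promoters are shown because they hold these letters. They are chr7:87493463-87493762 on the minus strand for Tyr, chr4:80833963-80834262 on the plus strand for Tyrp1, chr14:118052197-118052496 on the minus strand for Dct and chr7:56239509-56239808 on the plus strand for Oca2, each 5′ to 3′ along the gene with the matched letters in capitals:
Tyr promoter: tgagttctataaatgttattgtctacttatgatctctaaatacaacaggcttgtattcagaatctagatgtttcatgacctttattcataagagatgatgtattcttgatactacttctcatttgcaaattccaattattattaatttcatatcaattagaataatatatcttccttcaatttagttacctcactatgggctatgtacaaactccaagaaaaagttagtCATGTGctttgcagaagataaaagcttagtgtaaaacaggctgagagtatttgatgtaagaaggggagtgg
Tyrp1 promoter: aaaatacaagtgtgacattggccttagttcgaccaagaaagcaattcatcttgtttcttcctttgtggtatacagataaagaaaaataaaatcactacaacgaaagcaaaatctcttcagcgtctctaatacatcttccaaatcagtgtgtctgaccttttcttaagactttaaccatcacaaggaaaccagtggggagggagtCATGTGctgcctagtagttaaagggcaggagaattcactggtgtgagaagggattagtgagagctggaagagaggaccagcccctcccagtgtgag
Dct promoter: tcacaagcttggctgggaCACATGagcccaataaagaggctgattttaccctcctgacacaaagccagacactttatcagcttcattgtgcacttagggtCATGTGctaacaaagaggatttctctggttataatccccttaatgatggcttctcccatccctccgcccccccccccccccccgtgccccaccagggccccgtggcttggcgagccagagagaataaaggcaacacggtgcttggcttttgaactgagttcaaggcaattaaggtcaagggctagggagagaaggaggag
Oca2 promoter: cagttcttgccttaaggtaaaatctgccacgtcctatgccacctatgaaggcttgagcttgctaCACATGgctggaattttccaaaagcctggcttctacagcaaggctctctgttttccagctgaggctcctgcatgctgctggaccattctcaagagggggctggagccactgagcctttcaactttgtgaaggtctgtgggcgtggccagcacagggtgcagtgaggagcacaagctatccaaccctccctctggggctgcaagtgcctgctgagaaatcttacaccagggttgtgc
The match begins 21 bases before the start in Tyr and 46 bases before it in Tyrp1. In Dct there were 2 matches, 232 and 150 bases before the start, and in Oca2 1 match, 186 bases before it. The 3 promoters of Mitf held none of the letters in this window. A match describes the sequence and does not show that a factor binds there.

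The arrays were alike in distribution. The mean correlation of an array with the other 19 lay between 0.974 and 0.988, lowest for replicate 4 of 4 months. The cone genes Opn1sw, Arr3 and Gnat2 were bright on every array, at 13.5 to 13.8, 11.8 to 12.5 and 12.9 to 13.1. Nrl, the deleted gene, read 5.93 to 6.54 on the 20 arrays, but without a wild-type retina this level has nothing to be set against. The mean level of the 7 pigment genes lay between 6.02 and 7.87 on single arrays.

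The pathway genes Dct, Tyrp1 and Pmel varied widely between mice of 1 age. Dct, which converts dopachrome, read 7.53, 7.46, 7.37 and 7.76 at 1 month. It read 6.74, 7.05, 7.98 and 7.02 at 2 months and 6.86, 6.70, 7.16 and 7.02 at 4 months. It read 6.84, 9.02, 6.50 and 6.84 at 6 months and 10.54, 6.45, 8.31 and 8.41 at 10 months. The highest array was thus replicate 1 of 10 months and the lowest replicate 2 of the same age, 17.0-fold apart, so the oldest group held both ends of the whole series. The spread between mice was 1.67 at 10 months and 1.16 at 6 months, against 0.17 at 1 month (SD of log2 levels, n = 4 each).

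Tyrp1, which acts after Dct, followed the same order. It read 6.56, 6.74, 6.49 and 6.91 at 1 month, 6.36, 6.50, 6.78 and 6.31 at 2 months and 6.13, 6.14, 6.25 and 6.24 at 4 months. It read 6.34, 7.60, 5.84 and 6.10 at 6 months and 8.97, 5.80, 7.25 and 7.45 at 10 months. Replicate 1 of 10 months and replicate 2 of 6 months were again the 2 highest arrays, and replicate 2 of 10 months was again the lowest. The tightest group was 4 months, at 6.19 ± 0.06, and the widest 10 months, at 7.37 ± 1.30 (SD, n = 4 each).

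Pmel, the fibril protein, read 7.28, 7.71, 7.34 and 7.47 at 1 month, 7.13, 7.01, 7.06 and 6.95 at 2 months and 6.85, 6.49, 6.79 and 6.90 at 4 months. It read 6.73, 7.77, 6.58 and 6.48 at 6 months and 8.90, 6.60, 7.59 and 7.52 at 10 months. The same 2 arrays stood highest, and the 4 arrays of 1 month lay above every array of 2 and 4 months. Such a gap downwards at 2 months was seen in 9.66% of all genes tested. The range over the 20 arrays was 2.42, or 5.36-fold.

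Tyr, the first enzyme, was dim. Its mean over the 20 arrays was 4.95, below the level of 5.61 that marks the lowest 25% of genes, so it was not among the genes tested. It read 6.45, 4.63, 5.43 and 5.76 at 10 months, against 4.70, 5.29, 4.50 and 4.55 at 6 months, 4.47 to 4.79 at 4 months, 4.48 to 5.17 at 2 months and 4.87 to 5.22 at 1 month. Replicate 1 of 10 months was its highest array, as for the other enzymes.

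Oca2, the other dim gene, passed the limit with a mean of 5.82, and still passed it over the 16 younger arrays, at 5.73. It read 5.78, 5.75, 5.72 and 5.84 at 1 month, 5.70 to 5.75 at 2 months and 5.67, 5.58, 5.73 and 5.78 at 4 months. It read 5.91, 6.00, 5.29 and 5.66 at 6 months and 6.37, 5.51, 6.31 and 6.53 at 10 months. Here replicate 4 of 10 months, not replicate 1, was the highest array.

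Slc45a2 and Mitf did not share this order. Slc45a2, a transporter-like protein of the melanosome, lay between 6.11 and 7.14, and its highest array was replicate 4 of 4 months. Mitf lay between 6.75 and 7.29, a 1.45-fold range over all 20 arrays, with its highest value in replicate 3 of 4 months. The plot of levels by age sets the 7 genes side by side.

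**Figure D1:**
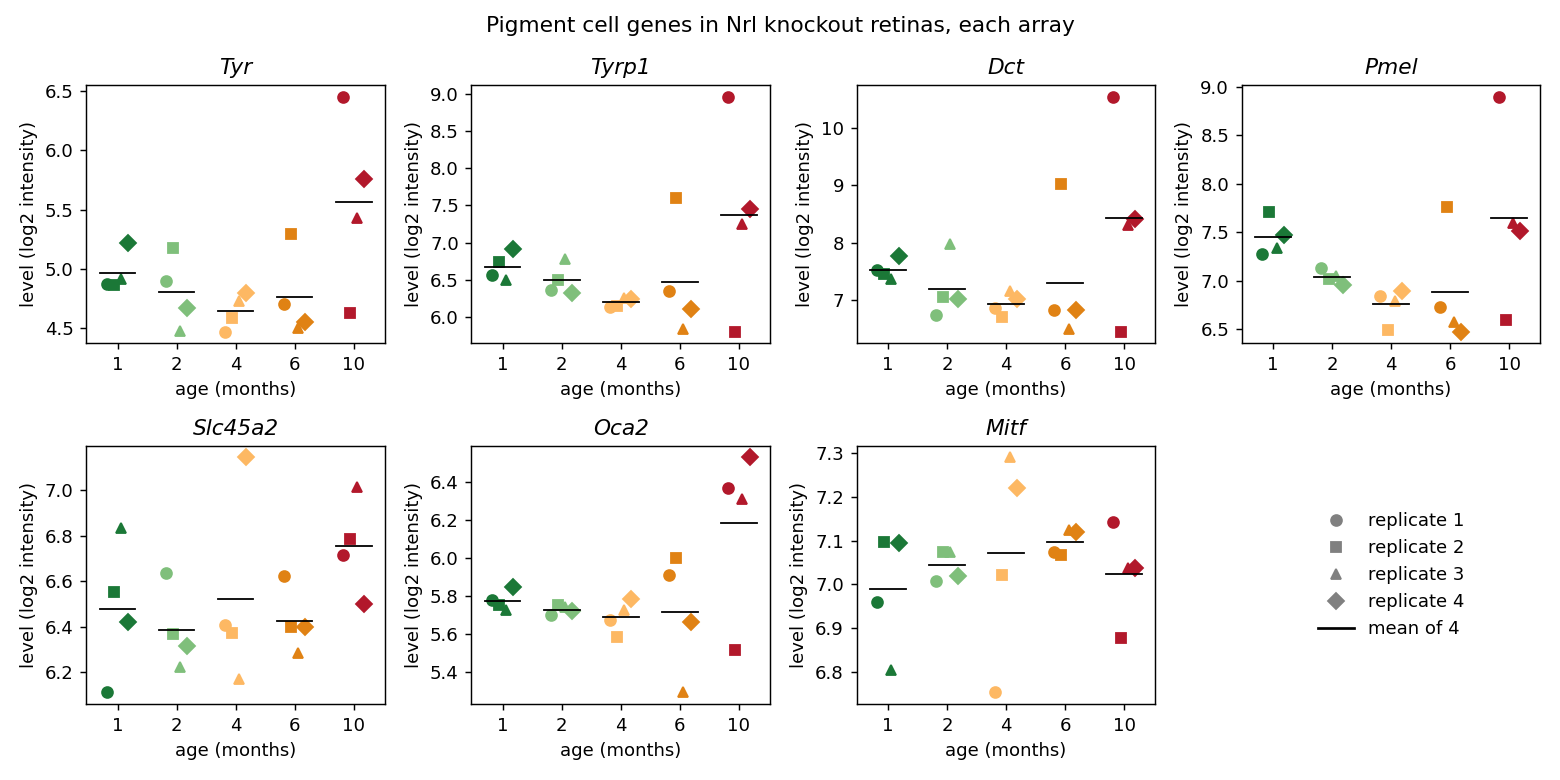
Level of each of the 7 pigment cell genes (log2 intensity, y axis, a scale of its own for each gene) on each of the 20 arrays by age (months, x axis); the symbol shape gives the replicate and the line the mean of 4 mice. At 10 months Dct ran from 6.45 in replicate 2 to 10.54 in replicate 1, while Mitf stayed between 6.75 and 7.29 over all ages.

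No pigment cell gene passed the F test over the 5 ages. Of the 6 genes tested, 0 were called at an adjusted p under 0.05 in limma, where 38.4% of the 11850 genes tested were called, and 1, Oca2, had an unadjusted p under 0.05 (adjusted p = 0.0863). At least the same 38.4% of all genes had an unadjusted p under 0.05. Rpe65, the retinoid isomerase that defines the pigment epithelium, was called in the same fit (adjusted p = 0.0399). The count for the pigment genes changed with the arrays used, most with 1 of them. Without replicate 2 of 10 months, the lowest in Dct and Tyrp1, 4 of 6 were called, where 35.1% of all genes were. Leaving out that array raises the mean of these genes at 10 months by construction.

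The comparison of 10 with 4 months sets the end of the series against its middle age. Oca2 was called, at 6.18 ± 0.45 at 10 months against 5.69 ± 0.09 at 4 months (SD, n = 4 each), a difference of 0.49 ± 0.16 (SE, adjusted p = 0.0381), or 1.40-fold. It was the 1 gene called of 6, where 21.7% of all genes tested were called, 10.1% as higher. Dct averaged 8.43 ± 1.67 at 10 months and 6.94 ± 0.20 at 4 months (SD, n = 4 each), a larger difference of 1.49 ± 0.60 with a larger error (SE, adjusted p = 0.0863). Tyrp1 differed by 1.17 ± 0.44 (adjusted p = 0.0632) and Pmel by 0.89 ± 0.33 (adjusted p = 0.0594). In each of these 4 genes 3 of the 4 arrays of 10 months stood above every array of 4 months, and replicate 2 of 10 months stood among or below them. The share of all genes with that pattern was not taken. The median change of the 6 genes was 0.69, against 0.02 over all genes tested.

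Without replicate 2 of 10 months, Dct differed between 10 and 4 months by 2.15 (adjusted p = 0.00758), Tyrp1 by 1.70 (adjusted p = 0.00281), Pmel by 1.25 (adjusted p = 0.00561) and Oca2 by 0.71 (adjusted p = 0.000384). That made 4 of 6 genes called, where 19.8% of all genes were. Replicate 2 was the lowest array of 10 months in these 4 genes, so leaving it out raises their difference by construction. Without replicate 1 of 10 months, the array highest in Dct, 0 of 6 were called, where 17.8% of all genes were. Without replicate 4 it was 0 of 6, where 18.6% were. With no limit on dim genes Tyr could be tested, and it was called at 0.92 ± 0.27 (adjusted p = 0.0293) where 14.1% of 15800 genes were, whereas Oca2 in that fit was not (adjusted p = 0.0596). Slc45a2 differed by 0.23 ± 0.18 (adjusted p = 0.399) and Mitf by -0.05 ± 0.09 (adjusted p = 0.782).

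Against 6 months and against 1 month, 0 of the 6 genes were called at 10 months, where 20.4% and 41.3% of all genes were. Oca2 came nearest, at 0.47 ± 0.16 against 6 months (adjusted p = 0.0506) and 0.41 ± 0.16 against 1 month (adjusted p = 0.0540). Unadjusted p under 0.05 was reached by 2 genes against 6 months, Oca2 and Pmel, and by 1 against 1 month, Oca2. At least the 20.4% and 41.3% of all genes called above reached it too. Dct differed from its level at 1 month by 0.90 ± 0.60 (adjusted p = 0.244) and Pmel by 0.20 ± 0.33 (adjusted p = 0.650). Leaving out replicate 2 of 10 months gave 3 calls against 1 month, Tyrp1, Dct and Oca2, where 38.9% of all genes were called. That array was the lowest of 10 months in these genes, so leaving it out raises their difference by construction. Without replicate 1 or replicate 4 of 10 months 0 of 6 were called, where 37.5% and 39.4% of all genes were.

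The comparison of 4 with 1 month covers the early months. Dct, Tyrp1 and Pmel were each lower on every array of 4 months than on any array of 1 month. In all, 3 of 6 genes lay apart and lower, where 9.51% of all genes did. Pmel averaged 6.76 ± 0.18 at 4 months and 7.45 ± 0.19 at 1 month (SD, n = 4 each), a difference of -0.69 ± 0.33 (SE, adjusted p = 0.173). Dct differed by -0.59 ± 0.60 (adjusted p = 0.563) and Tyrp1 by -0.48 ± 0.44 (adjusted p = 0.509). In this fit, whose spread is taken from all 5 ages, 0 of 6 were called, where 15.1% of all genes were, and 1, Pmel, had an unadjusted p under 0.05. At least the same 15.1% of all genes had an unadjusted p under 0.05.

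In a fit of only the 8 arrays of these 2 ages, the standard errors were smaller and 3 of 6 genes fell. Pmel fell by 0.69 on the log2 scale with an SE of 0.12 (adjusted p = 0.0100), Tyrp1 by 0.48 with an SE of 0.09 (adjusted p = 0.0152) and Dct by 0.59 with an SE of 0.12 (adjusted p = 0.0162). In that fit 5.06% of all genes were called as lower. By the same fit, Pmel had fallen at 2 months against 1 month by 0.41 with an SE of 0.09 (adjusted p = 0.0259), where 5.37% of all genes were called as lower. Some lens genes were also lower in this contrast. The mean level of the 10 lens genes ran from 4.94 to 5.38 on the arrays of 4 months, against 5.85 to 6.51 on those of 1 month, and Cryaa, a crystallin, differed by -2.52 ± 0.49 (adjusted p = 0.00183). Of the 5 lens genes tested 2 fell, where 8.24% of all genes did. Whether lens tissue had a part in the higher pigment genes at 1 month was not tested. Rpe65 differed between 4 and 1 month by 0.13 ± 0.30 (adjusted p = 0.818), and of the 17 pigment epithelium genes tested 3 rose and 1 fell, where 6.91% and 8.24% of all genes did. Whether that list and the pigment genes differed was not tested.

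The remaining pairs of ages gave 0 calls of 6 in the same limma fit, and 0 at an unadjusted p under 0.05. These were 2 against 1 month, where 8.51% of all genes were called, 6 against 1 month, with 16.4%, 4 against 2 months, with 0.118%, and 6 against 4 months, with 0%.

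Tyr, Tyrp1, Dct and Pmel were highest in replicate 1 of 10 months, whereas Rpe65 and the mean of the pigment epithelium list were highest in replicate 4 of that age, as was Oca2. Each array measures the RNA of the whole sample, so fewer cells of a type and less RNA per cell cannot be told apart. Rpe65 read 7.63, 6.35, 7.25 and 8.61 at 10 months, highest in replicate 4, where Dct was 8.41 and not 10.54. Between replicates 1 and 4 of 10 months, 6 of the 7 pigment genes were higher in replicate 1, whereas 16 of the 19 pigment epithelium genes were lower in it. Dct was higher in replicate 1 by 2.13 and Tyrp1 by 1.52, while Rpe65 was lower there by a difference of -0.97 and Rgr, an opsin of the epithelium, by -0.76. These are differences between 2 mice, with no replicate. The arrays were set side by side with their levels seen, as the highest in Dct and the highest in Rpe65. The opposite directions follow in part from that choice, and the share of all genes was not taken.

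At 6 months replicate 2 stood out for Dct, at 9.02 against 6.84 in replicate 1, whereas Rpe65 was 6.48 in replicate 2 and 7.22 in replicate 1. Of the 19 epithelium genes, 16 were lower in replicate 2 than in replicate 1, and 5 of the 7 pigment genes were higher in it. This pair too was chosen with the levels seen, which bears on both counts, and the share of all genes was not taken. Replicate 1 was the array of 6 months with the highest epithelium list mean, at 7.75, and replicate 2, at 7.53, lay between replicates 3 and 4, at 7.43 and 7.54. Of the 10 lens genes 6 were higher and 4 lower in replicate 2 than in replicate 1, and Cryaa read 9.22 there and 7.23 in replicate 1. In replicate 1 of 10 months the genes of choroid and sclera were at their highest, with a list mean of 6.49 against 5.65 to 6.30 on the other 19 arrays. Cryaa was 6.21 in that array. What part lens or choroid had in the pigment gene levels was not tested.

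**Figure D2:**
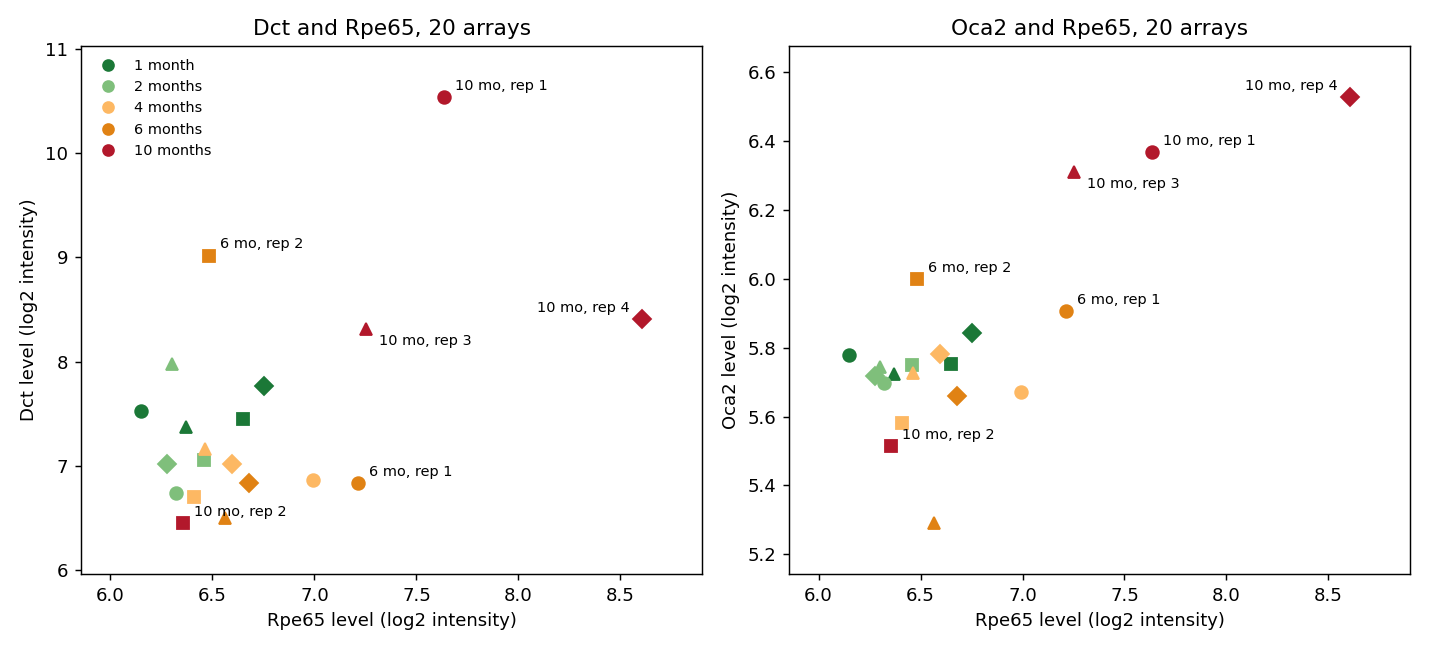
Level of Dct (left, y axis) and of Oca2 (right, y axis) against the level of Rpe65 (x axes), all in log2 intensity, 1 point per array and 20 arrays, coloured by age with 6 arrays named. Replicate 2 of 6 months had a Dct level of 9.02 at an Rpe65 level of 6.48, and replicate 1 of 6 months a Dct level of 6.84 at an Rpe65 level of 7.22; Oca2 was highest, at 6.53, in the array where Rpe65 was highest.

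Across the 20 arrays Dct and Tyrp1 varied together, with Pearson's r = 0.98 and Spearman's rho = 0.92 (permutation test, two-sided, adjusted p = 4.2e-05 for each over 21 pairs of genes, from an unadjusted p of 1e-05, the smallest that 100000 resamples can give). Taken as deviations from the age means, r was 0.98 (permutation within ages, adjusted p = 0.00105), and without replicate 2 of 6 months and replicate 1 of 10 months it was 0.96. Pmel followed Tyrp1 with r = 0.94 and rho = 0.92 and Dct with r = 0.92 and rho = 0.86 (permutation test, adjusted p = 4.2e-05 for each). The 2 values within ages were 0.96 and 0.93 (adjusted p = 0.0224 and 0.0278), and those without the same 2 arrays 0.85 and 0.80. Tyr followed Tyrp1 as well, with r = 0.92 and rho = 0.80 (permutation test, adjusted p = 4.2e-05 and 0.00015), 0.89 within ages (adjusted p = 0.0278) and 0.78 without replicates 1 and 4 of 10 months, the 2 arrays farthest from the median of Tyr.

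Mitf, by contrast, had r between -0.08 and 0.20 with the 6 other genes (permutation test, adjusted p = 0.547 to 0.735). Within ages its r was 0.42 with Tyr, 0.35 with Tyrp1 and 0.34 with Dct (permutation within ages, adjusted p = 0.0508, 0.0658 and 0.0660). The 11 probe sets of Mitf had a median r of 0.25 with its gene level, so that level is a weak measure of the gene. Slc45a2 had r between -0.08 and 0.31 with the others (adjusted p = 0.365 to 0.735).

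With Rpe65 the order of the genes was another. Oca2 had r = 0.79 and rho = 0.52 (permutation test over 20 arrays, two-sided, adjusted p = 0.00098 and 0.136 over 7 genes). Its r was 0.71 within ages (adjusted p = 0.414) and 0.49 without replicates 1 and 4 of 10 months (adjusted p = 0.290), so neither value was called. Tyr had r = 0.65 and rho = 0.34 (permutation test, adjusted p = 0.0310 and 0.250), 0.48 within ages and 0.21 without the same 2 arrays. For Tyrp1, Dct and Pmel r was 0.56, 0.50 and 0.43 (permutation test, adjusted p = 0.0644, 0.0705 and 0.0889), and without the same 2 arrays 0.18, 0.10 and 0.07. Slc45a2 had r = 0.26 and Mitf r = 0.08 (permutation test, adjusted p = 0.320 and 0.735).

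Slc45a2 followed the array itself. Its level ran against the spread of the array, the SD of all probe set levels on it, with r = -0.82 and rho = -0.65 (permutation test, two-sided, adjusted p = 0.00014 and 0.0155 over 7 genes). Within ages r was -0.88 (permutation within ages, adjusted p = 0.00091). Without replicate 4 of 4 months and replicate 3 of 10 months, the 2 arrays of narrowest spread, at 2.28 and 2.30, r was -0.64 (permutation test, adjusted p = 0.0347). The other 6 genes had r between -0.09 and 0.09 with the spread (permutation test, adjusted p = 0.959 to 0.980). The part of the array's spread in the levels of Slc45a2 was not tested further.

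The genes whose levels over the 20 arrays were most like each pigment gene are given as a description. Beyond the pigment genes themselves, Tyrp1 was most like Gpnmb, a glycoprotein of melanosomes and phagocytes (r = 0.91), Sfrp1, a secreted Wnt inhibitor (r = 0.90), and Bmp7, a growth factor of the TGF-beta family (r = 0.87). The same 3 genes came next for Dct, with r = 0.88, 0.88 and 0.87. Gpnmb read 9.57, 6.89, 8.17 and 8.57 at 10 months, so replicate 1 was highest and replicate 2 lowest there too. For Pmel the nearest were Cobll1 (r = 0.83), Sfrp1 (r = 0.83) and Acta2, a smooth muscle actin (r = 0.80).

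Oca2 had other company. Its nearest genes were Nid2, a basement membrane protein (r = 0.90), Ptgds, the prostaglandin D2 synthase (r = 0.90), Rdh5 (r = 0.89), a retinol dehydrogenase of the pigment epithelium, Clic6 (r = 0.89) and Rgr (r = 0.88). For Slc45a2 they were Grin3b, Amz1, Col11a2, Uck1 and Has1, with r between 0.90 and 0.92. Mitf had the weakest likeness, with Gpr85 at r = 0.75 and the next 4 genes, Exo5, Igf1, Serp2 and Gpr26, at 0.62 to 0.65.

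Each gene level sums up several probe sets, short stretches that mostly lie in single exons, and these differed in how far they moved together. All 9 probe sets of Dct had r of at least 0.8 with the gene level, with a median of 0.97. For Tyrp1 it was 10 of 15 (median 0.91), for Pmel 10 of 13 (median 0.89) and for Tyr 3 of 12 (median 0.77). For Oca2 it was 1 of 23 (median 0.65), for Slc45a2 2 of 12 (median 0.64) and for Mitf 0 of 11 (median 0.25).

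Replicate 1 of 10 months was the highest array in 9 of 9 probe sets of Dct, 13 of 13 of Pmel, 14 of 15 of Tyrp1 and 11 of 12 of Tyr, but in 5 of 23 of Oca2 and 0 of 12 of Slc45a2. Between 10 and 4 months every probe set of Dct, Tyrp1, Pmel and Tyr differed upwards, by 1.00 to 1.91 for Dct. None of the 95 probe sets was called in that comparison or between 4 and 1 month, where 3.25% and 2.86% of the 194293 probe sets were (limma, adjusted over all probe sets). Between 10 and 1 month 2 probe sets of Oca2 and 1 of Mitf were called, where 15.1% of all probe sets were, and the F test called 1 of Mitf, where 9.23% were. The brightest probe set of Tyrp1 differed from the rest, with r = 0.19 with the gene level.

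**Figure D3:**
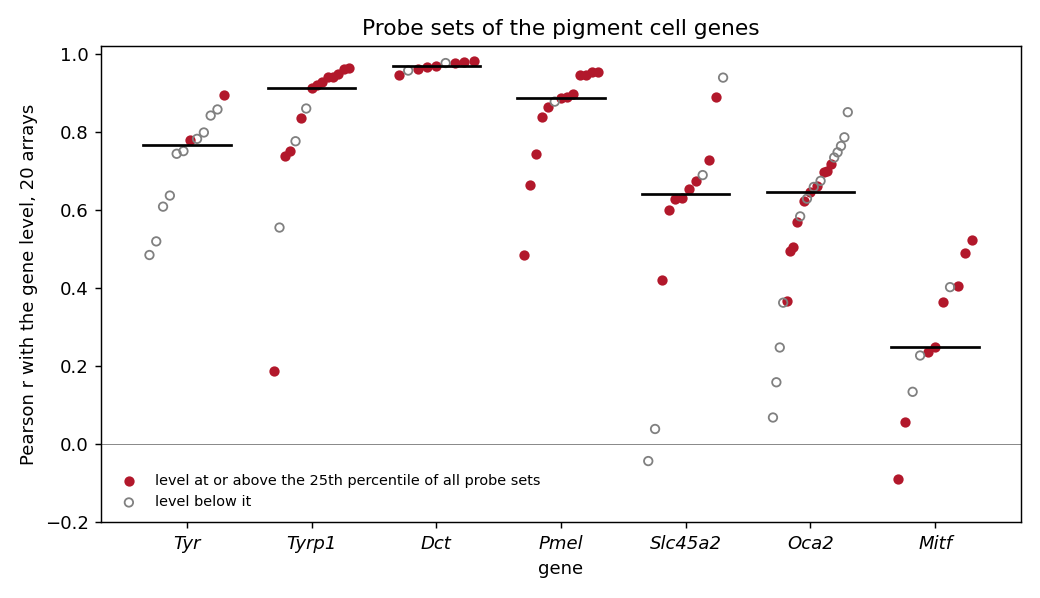
Pearson's r of each probe set's level with the level of its gene over the 20 arrays (y axis) for the 95 probe sets of the 7 genes (x axis); filled points are probe sets at or above the 25th percentile of mean level, open points dimmer ones, and lines are medians. The medians ran from 0.97 for Dct to 0.25 for Mitf.

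The pigment epithelium genes outside melanin synthesis were the nearest list to compare. Whether its genes were read from attached epithelium or from the retina itself was not tested. Of its 20 genes 19 were on the table and 17 were tested. Between 10 and 1 month 9 rose, where 20.5% of all genes did, and 1 fell, with a median change of 0.44 against 0.04 over all genes tested. Rpe65 rose by 0.98 ± 0.30 (SE, adjusted p = 0.0144), Rgr by 0.84 ± 0.30 (adjusted p = 0.0314) and Lrat, which makes the retinyl esters that Rpe65 uses, by 0.69 ± 0.22 (adjusted p = 0.0171). Rlbp1, which carries retinaldehyde and is also made by Müller glia, rose by 0.61, Rrh by 0.60 and Stra6, the retinol uptake receptor, by 0.58 (adjusted p = 3.64e-07, 3.49e-05 and 0.0293). Krt18, a keratin, was the gene that fell, by 0.51 (adjusted p = 0.000106).

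Of these genes, Rrh and Rlbp1 were higher on every array of 10 months than on any of 1 month, as were 18% of all genes tested, whereas in Rpe65, Lrat, Rgr and Stra6 the ages overlapped, with replicate 2 of 10 months among the young arrays or, for Rgr, below them. Ttr, a carrier of thyroid hormone and retinol that the epithelium secretes, differed by 0.42 ± 0.26 (adjusted p = 0.204). Without replicate 4 of 10 months 5 rose and 1 fell, where 39.4% of all genes were called, and without replicate 2 it was 13, where 18.9% of all genes rose, and 1. Between 10 and 4 months 4 rose, Rrh, Ezr, Cdh3 and Rlbp1, where 10.1% of all genes did, and 2 fell, Sulf1 and Serpinf1, where 11.7% did. Without replicate 2 of 10 months 13 rose, where 8.86% of all genes did, and 1 fell, and without replicate 4 it was 2 and 1, where 18.6% of all genes were called. Between 4 and 1 month the 3 that rose were Mertk, Sulf1 and Rlbp1, and the 1 that fell was Krt18.

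**Figure D4:**
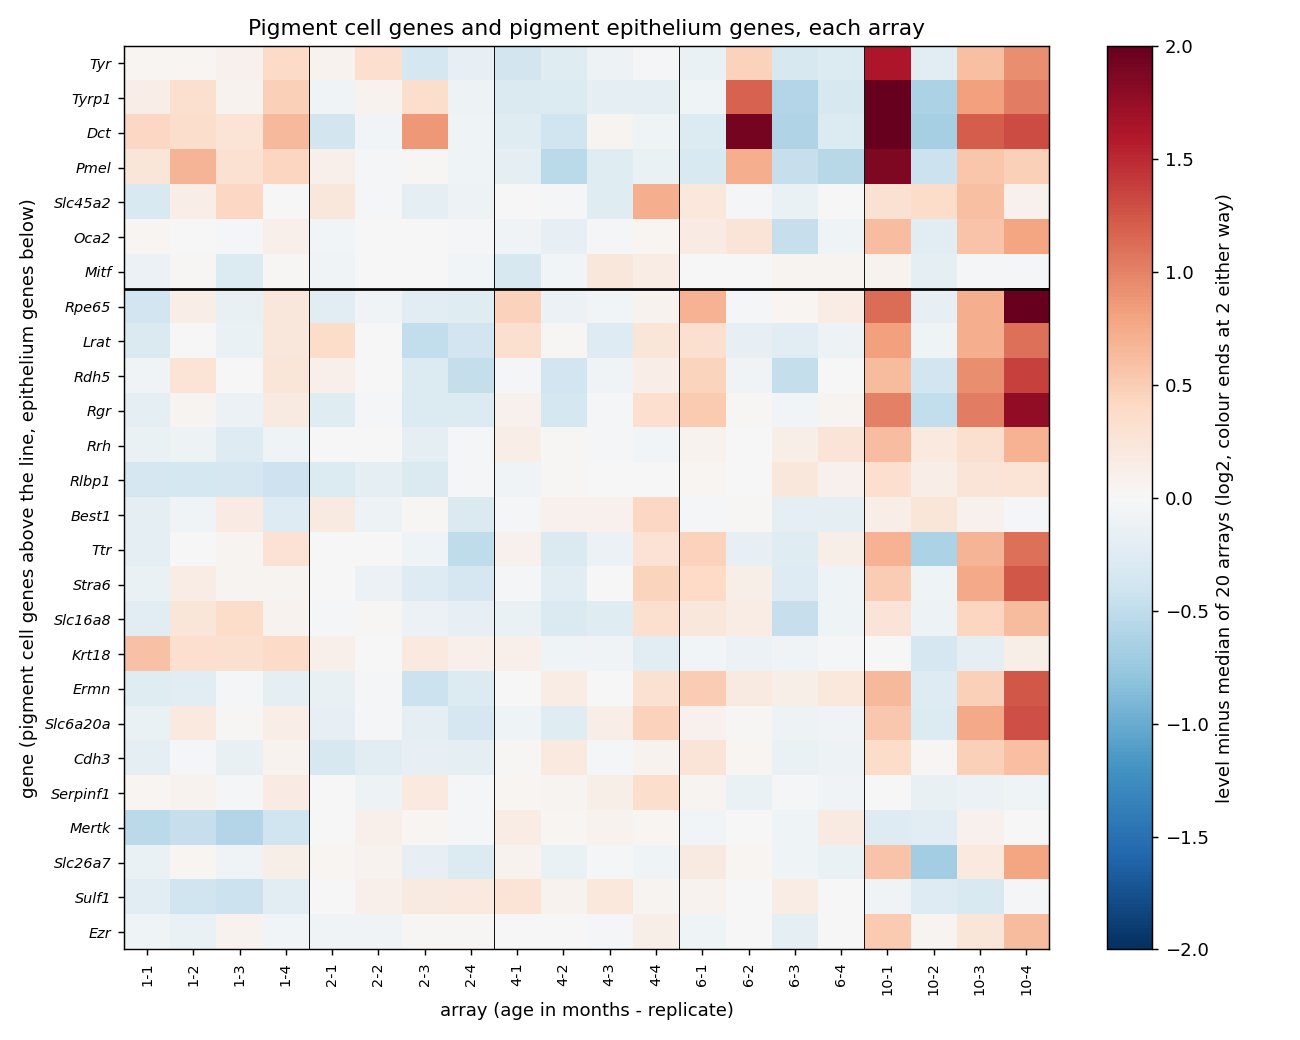
Level of the 7 pigment cell genes (above the line) and the 19 pigment epithelium genes (below it) on each array (x axis, age in months and replicate), as the difference from the gene's median over 20 arrays (log2, colour, ending at 2 either way). Array 6-2 is high in Dct and Tyrp1 and near the median in Rpe65, array 10-4 is highest in Rpe65 and Rgr, and array 10-2 is lowest in Dct, Tyrp1 and Rgr.

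Genes that build and move the melanosome form a wider list. Of 30 listed genes 27 were on the table and 26 were tested. The list mean was 8.01 in replicate 1 of 10 months and 7.99 in replicate 2 of 6 months. On the other 18 arrays it was 7.79 to 7.97, lowest in replicate 2 of 10 months. Its ends fell on the same arrays as those of Dct within a narrow range, but single genes of the list went both ways. At 10 months 17 genes were higher and 10 lower in replicate 1 than in replicate 2, with a median difference of 0.06. At 6 months 13 were higher and 14 lower in replicate 2 than in replicate 1, with a median of -0.0025. Between 10 and 1 month 4 rose, where 20.5% of all genes did, and 6 fell, where 20.7% did, with a median change of 0.04, the same as over all genes tested, also 0.04. Slc7a11, a cystine transporter that bears on pheomelanin and on the response to oxidative stress in many cells, rose by 1.44 ± 0.21 (SE, adjusted p = 2.31e-05). It was higher on every array of 2, 4, 6 and 10 months than on any of 1 month. Bloc1s6 rose by 0.38 and Mreg by 0.26, while Hps4 fell by 0.46, Hps5 by 0.37 and Ap3m1 by 0.23 (adjusted p = 2.01e-05, 0.00367, 0.000115, 0.00182 and 0.0399). These encode parts of the trafficking complexes that many cells use for lysosome-related organelles. Between 10 and 4 months 3 rose, Slc7a11, Slc24a5 and Bloc1s6, and 2 fell, Lyst and Bloc1s5, where 10.1% and 11.7% of all genes did. Slc24a5, an exchanger of the melanosome in pigment cells, rose by 0.41 ± 0.12 (adjusted p = 0.0175). Without replicate 1 of 10 months 1 gene of the list rose and 2 fell, where 7.84% and 10% of all genes did. Without replicate 4 it was 1 and 3, where 7.56% and 11.1% of all genes did. Without replicate 2 it was 5 and 2, where 8.86% and 10.9% did.

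Of the 17 tested regulators and receptors of pigment cells, 4 rose and 3 fell between 10 and 1 month, or 7 in all where 41.3% of all genes were called. Ednrb, an endothelin receptor of melanoblasts that retinal glia also carry, rose by 1.60 ± 0.28 (SE, adjusted p = 0.000157), and its ligand Edn3 rose by 0.55 ± 0.14 (adjusted p = 0.00394). Pax6 rose by 0.30 and Sox9 by 0.20, while Lef1 fell by 0.48, Otx2 by 0.25 and Trpm1 by 0.22 (adjusted p = 0.00272, 0.0147, 0.000321, 0.000256 and 0.0475). Pax6, Otx2 and Trpm1 are also genes of retinal neurons. Ednrb and Dct did not follow the same mice at 10 months, since Ednrb was highest in replicate 2, at 9.61, where Dct was 6.45.

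Markers of other tissues that could have come along are given for the whole lists. Of 7 tested genes of the ciliary body and iris, which hold pigment, 6 rose between 10 and 1 month, where 20.5% of all genes did, a share that also stands for the next 2 lists, and the list mean ran from 7.36 to 7.75 at 10 months and from 7.12 to 7.27 at 1 month. Of 7 tested genes of choroid and sclera 1 rose, Plvap, and the list mean ran from 5.88 to 6.49 at 10 months and from 5.77 to 5.94 at 1 month. Of 5 tested genes of melanocytes 2 rose, Mcam and Ednrb, whereas Sox10, the transcription factor of the lineage, differed by 0.16 ± 0.13 (adjusted p = 0.307). Replicate 1 of 10 months had the highest list mean for ciliary body and iris and for choroid and sclera. Whether the genes of these lists were read from those tissues or from the retina itself was not tested. The part of these tissues in the pigment gene levels was not tested.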

How the data were processed

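Retinas of 20 Nrl-/- mice were measured on exon arrays. The deposited values are log2 intensities per probe set, computed by the authors through RMA per the submitters' processing notes; the genome build behind the array is not given in the sources used here. RMA gives the arrays a common distribution, so a shift of all genes would not be seen, and precision is limited by 4 arrays per age. Gene levels use the 179496 of 194293 probe sets with a single symbol (13469 have none and 1328 more than 1); 2020 symbols were updated through RefSeq (GRCm38.p6). Levels are median polish over probe sets. The lowest 25% of genes by mean were left out, and 11850 were tested in limma 3.58.1 (R 4.3.3; lmFit, eBayes, 1 mean per age, two-sided, Benjamini-Hochberg over all genes, threshold 0.05); the fit was tested on simulated data. Replicates are separate mice. Correlations used 100000 permutations. Named genes are the members, Rpe65, Rlbp1 and Ttr, the most changed genes of each list (at most 6, those called before others) and the 5 most alike genes of each member; members of counts up to 5, the cone genes, Nrl and genes set beside single arrays were chosen with values seen. The members and lists were chosen with earlier results of these data known.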

Additional observations from a re-analysis of the deposited data

Results flagged for a closer look

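Of the 35 groups of 4 arrays (7 genes at 5 ages), 2 held an array that stood apart by Dixon's criterion, where chance gives about 1 in 20. Dct at 6 months read 9.02 in replicate 2, and the next array was 6.84. Tyr at 1 month read 5.22 in replicate 4, and the next array was 4.91. Both are higher than the other arrays of their age. In replicate 2 of 6 months the lens gene Cryaa was also high, at 9.22, and the part of the lens in the Dct level was not tested.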

How the results depend on the processing

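The call of Oca2 between 10 and 4 months held in some settings and was lost in others. The count of pigment genes called there was 1, and it was 2 with the mean of the probe sets. It was 0 with the brightest probe set, with the brighter probe sets, with the lowest 50% of genes left out, after quantile normalization, in the replicate block, in the 8 arrays of the 2 ages, with a minimum change of 1.5-fold and without the 2 arrays highest in Dct (chosen after seeing the data). Leaving out 1 array gave 0 to 4: 0 without replicate 1, 2 or 3 of 4 months or replicate 1, 3 or 4 of 10 months, 2 without replicate 4 of 4 months, 3 without replicate 2 of 6 months and 4 without replicate 2 of 10 months. The mean of the probe sets called 2281 of 11850 genes, and the array settings with 2, 3 and 4 called 2714, 2470 and 2346. The F test called 0, but 1 with the brightest probe set, 1 without the 2 arrays and 0 to 4 with 1 array left out (1 without replicate 2 of 6 months, 4 without replicate 2 of 10 months). For 4 against 1 month the 0 became 1 with the brightest probe set, where Mitf was called, 1 without the 2 arrays, Pmel, and 3 in the 8 arrays, and stayed 0 with 1 array left out. For 10 against 1 month the 0 became 1 with the brightest probe set and 0 to 3 with 1 array left out (1 without replicate 2 or 3 of 6 months, 3 without replicate 2 of 10 months). Without those arrays 4769, 4874 and 4608 of all genes were called. For 10 against 6 months Dct, Tyrp1, Pmel and Oca2 were called without replicate 2 of either age. These are their highest array of 6 and lowest of 10 months, so the difference widens by construction. The share of all genes was not taken. With no filter 10 against 4 months also gave 1, Tyr, and the cause was not tested. Over all genes, 4 against 1 month gave 1795 calls, and 840 with the brightest probe set, 3020 with array weights, 1049 in the 8 arrays and 171 with at least 1.5-fold; 10 against 4 months gave 2575, and 1075 with the brightest probe set, 1082 in the 8 arrays and 183 with at least 1.5-fold; 10 against 1 month gave 4890, and 673 with at least 1.5-fold. Of the pigment epithelium genes, the 6 called for 10 against 4 months became 2 with the brightest probe set and in the 8 arrays, and the 10 called for 10 against 1 month became 5 with the lowest 50% left out, 6 with array weights and 5 with at least 1.5-fold.

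The sign of a change turned in 17 of 756 recomputed member changes, none of them called. With the brightest probe set, 4 against 1 month gave 0.21 for Tyrp1, 0.065 for Pmel and 0.15 for Oca2, and 10 against 4 months gave -0.046 for Slc45a2. With array weights, Slc45a2 was -0.18 for 4 against 1 month, and Pmel -0.16 and Mitf -0.049 for 10 against 1 month. Without the 2 arrays highest in Dct, or without replicate 1 of 10 months alone, Pmel was -0.21 and Mitf -0.00545 for 10 against 1 month. With 1 array left out, Slc45a2 ran from -0.16 to 0.16 for 4 against 1 month, Mitf from -0.15 to 0.025 for 10 against 4 months, and for 10 against 1 month Pmel from -0.21 to 0.55 and Mitf from -0.027 to 0.084. Correlations with Rpe65 lost their call within ages for Tyr (0.48) and Oca2 (0.71) and without the 2 farthest arrays (0.21 and 0.49), and within ages that of Slc45a2 was -0.077. Slc45a2 also turned within ages with Tyrp1 (-0.072) and Dct (-0.12), Mitf with Pmel without 2 arrays (-0.089), and with the array's spread Tyr (0.0054) and Oca2 (0.047) within ages, and Oca2 (0.12) and Mitf (0.15) without 2 arrays. The replicate numbers did not pair the mice: over 40 same-numbered pairs, deviations from the age means correlated between -0.57 and 0.56, with 10 above 0.1, and the block changed no other count of pigment genes.

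With 4 mice per age and an SD of 1.67 for Dct at 10 months, differences that single mice can carry are not settled by these arrays. Oca2 lies close to the dim limit of 5.61, and Tyr lies below it.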
